A study of Homo sapiens with 6 samples.

Results

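The 6 ribosomal protein paralogs RPL7L1, RPL22L1, RPL26L1, RPL36AL, RPL39L and RPS27L were followed in A375 cells with and without DUS1L. They were taken by gene symbol from a table of 63086 genes, and each was set beside the gene it resembles, here called its parent (RPL7, RPL22, RPL26, RPL36A, RPL39 and RPS27). All 6 paralogs and all 6 parents passed the filter on low counts, as did 16046 genes in all. A375 is an established human melanoma line. Total RNA was sequenced from 3 wild-type libraries, whose cells were kept in parallel without targeting, and from 3 DUS1L knockout libraries, whose cells had been edited with CRISPR/Cas9 and passed through clonal selection. The number of clones is not given in the sources used here, so a difference between the genotypes and one between a clone and the parental population cannot be told apart. DUS1L encodes an enzyme that makes dihydrouridine in tRNA.

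Most cytosolic ribosomal proteins are encoded by a single active gene, and a few of these genes have a second, diverged copy that still makes protein. Such paralogs can take the place of the parent protein in some ribosomes, act before the ribosome is finished, or serve outside it. RPL22L1 can replace RPL22, whose protein binds RNA and is known to hold RPL22L1 down; RPL7L1 is the human relative of a yeast factor that works in the assembly of the large subunit; RPS27L encodes a protein that, like RPS27, binds MDM2; and RPL39L is known from the testis. RPL26L1 and RPL36AL encode proteins close to those of their parents. Ribosomal protein mRNAs as a class begin with a run of C and T letters at the start of transcription, the 5′ terminal oligopyrimidine tract, through which growth signalling controls their translation.

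The sequence around annotated start sites was searched for such a run. RefSeq start sites (GRCh38.p14) were examined for 5 of the 6 paralogs and for 5 parents. RPL39L and RPL7 were not among the genes examined, so nothing is said here about their start sites. Each line below gives, 5′ to 3′ on the gene's own strand, the 40 bases before and 20 bases from the start, with the longest run made only of C and T in capitals. The first 2 lines are paralogs that were higher in knockout cells, the next 3 are paralogs that were lower, and the last 4 are parents.
RPL7L1, chr6:42879576-42879635, plus strand: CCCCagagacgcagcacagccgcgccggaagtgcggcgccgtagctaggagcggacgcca
RPS27L, chr15:63157458-63157517, minus strand: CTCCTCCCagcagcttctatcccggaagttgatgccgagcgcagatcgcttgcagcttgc
RPL26L1, chr5:172958689-172958748, plus strand: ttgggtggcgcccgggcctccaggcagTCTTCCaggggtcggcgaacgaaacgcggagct
RPL22L1, chr3:170870176-170870235, minus strand: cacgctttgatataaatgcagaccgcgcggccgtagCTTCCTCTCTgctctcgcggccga
RPL36AL, chr14:49620607-49620666, minus strand: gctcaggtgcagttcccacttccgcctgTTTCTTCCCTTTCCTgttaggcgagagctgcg
RPL22, chr1:6199576-6199635, minus strand: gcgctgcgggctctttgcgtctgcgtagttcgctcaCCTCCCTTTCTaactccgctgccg
RPL26, chr17:8383174-8383233, minus strand: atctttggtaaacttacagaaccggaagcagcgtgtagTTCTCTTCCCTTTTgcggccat
RPL36A, chrX:101390971-101391030, plus strand: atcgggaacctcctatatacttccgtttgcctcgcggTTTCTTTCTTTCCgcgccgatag
RPS27, chr1:153990722-153990781, plus strand: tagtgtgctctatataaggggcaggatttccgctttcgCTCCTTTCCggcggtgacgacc
A run of at least 8 such letters was taken as at the start if it held the start base or the base before it. RPL22L1 and RPL36AL had one, of 10 and 15 bases, as did the 5 parents examined, with 9 to 22 bases. The RPL36AL run began at base -12 and so lay mostly before the annotated start. Those of RPL22L1 and the 5 parents began at bases -4 to -2. RPL7L1 had none longer than 4 bases. RPL26L1 had none longer than 6 at its first annotated start and none longer than 3 at its second. The run of 8 bases of RPS27L lay at the far upstream end of the window, from base -40, and not at the start. Among all 35116 start sites in the table, 6.88% had a run of 8 or more at the start and 25.1% had one anywhere in the 60-base window, and on the other strand (runs of A and G) 23.9% had one anywhere. For 78 start sites, which belong to 63 of the 79 cytosolic ribosomal protein genes, 60.3% had one at the start and 84.6% anywhere. A match, or the lack of one, is a description of the letters in this window only.

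How far the members can be told from their parents in short reads differed between pairs. RPL39L and RPL39 are the closest pair, with 94.9% identity over 156 coding bases. Their coding sequences, from the GENCODE transcripts (GRCh38), are shown with the 8 differing bases in capitals, because these bases separate the reads of the coding part.
RPL39L coding sequence: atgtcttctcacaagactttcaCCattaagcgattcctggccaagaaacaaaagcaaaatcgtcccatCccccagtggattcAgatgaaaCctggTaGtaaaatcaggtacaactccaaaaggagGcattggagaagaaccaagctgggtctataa
RPL39 coding sequence: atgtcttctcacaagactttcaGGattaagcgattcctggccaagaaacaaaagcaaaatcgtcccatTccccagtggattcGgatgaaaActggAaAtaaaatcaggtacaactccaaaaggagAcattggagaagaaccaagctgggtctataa
The RPL36AL and RPL36A coding sequences were 90% identical, RPL26L1 and RPL26 84.2%, RPS27L and RPS27 78%, RPL22L1 and RPL22 65.4%, and RPL7L1 and RPL7 54.2%. The longest stretch shared without a mismatch by the canonical transcripts was 67 bases for the RPL39 pair, 63 for the RPL36A pair and at most 20 for the other 4. The estimated counts of RPL22L1, RPL36AL, RPL39L and RPS27L were whole numbers in all 6 libraries, where whole means exactly equal to an integer as deposited. Those of RPL7L1 had a fraction in 5 libraries, those of RPL26L1 in 2 and those of each parent in all 6. The annotation held 12 numbered pseudogenes of RPL7L1 and none of the other paralogs, against 17 to 61 for each parent. The pseudogenes of a parent drew at most 1.44% of its own count in any library.

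The libraries held 17121315 to 18861514 estimated counts, so that 3 counts equal 0.16 to 0.18 CPM (counts scaled to a common library size by the TMM method). The DUS1L transcript averaged 77.6 ± 2.2 CPM without targeting and 54.4 ± 1.1 CPM after it (SD, n = 3 each), with 70.2% left. Gene counts do not show an edit, so this partial fall does not by itself check the labels. Wild-type replicate 1 stood apart on the second principal component (13.7% of the variance), at 31.6 against -16.3 to 9.23 for the other 5 libraries. Of 8 melanocyte lineage markers, the lineage factors SOX10 and MITF were present. SOX10 averaged 603.8 ± 16.9 CPM in wild-type against 480.5 ± 33.8 CPM in knockout replicates and MITF 19.6 ± 0.7 against 20.6 ± 1.2 CPM, while TYR was at 0 and DCT, PMEL, MLANA and TYRP1 were under 1 CPM on average. The summed level of the 8 was 612 to 648.4 CPM in wild-type and 479.6 to 546.2 CPM in knockout libraries, and of 4 tested SOX10 and S100B fell, by 0.33 and 0.90 on the log2 scale. Summed markers were at 0.06 to 0.18 CPM in wild-type against 0.68 to 1.21 CPM in knockout replicates for leukocytes, 0 to 0.35 against 0.27 to 1.16 for germ cells (PRM1, TNP1 and RPL10L at 0), and 2.66 to 3.84 against 2.02 to 3.93 for endothelium. Summed keratinocyte markers were at 53.2 to 58.8 CPM in wild-type and 49.98 to 59.0 CPM in knockout libraries, nearly all of it KRT10, with KRT5 and KRT1 at 0. Summed fibroblast markers were at 20.2 to 50.1 and 39.6 to 111.8 CPM, with COL1A1 spread widely in both groups and not called. The part of these markers in the results was not tested.

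RPL22L1 and RPL36AL fell in knockout cells and RPL7L1 and RPS27L rose, while all 6 parents fell. RPL26L1 fell by a smaller amount and RPL39L was not called. In all, 5 of the 6 paralogs were called at an adjusted p under 0.05 (edgeR quasi-likelihood test over all genes), 2 higher and 3 lower, where 41.2% of all tested genes were called, 20.5% higher and 20.7% lower. For the same 5 paralogs the libraries of the 2 groups did not overlap, 2 being higher and 3 lower, as held for 51.1% of all tested genes, 25.4% higher and 25.8% lower. RNA was pooled from whole cultures, so fewer cells with a transcript and less of it per cell cannot be told apart.

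**Figure D1:**
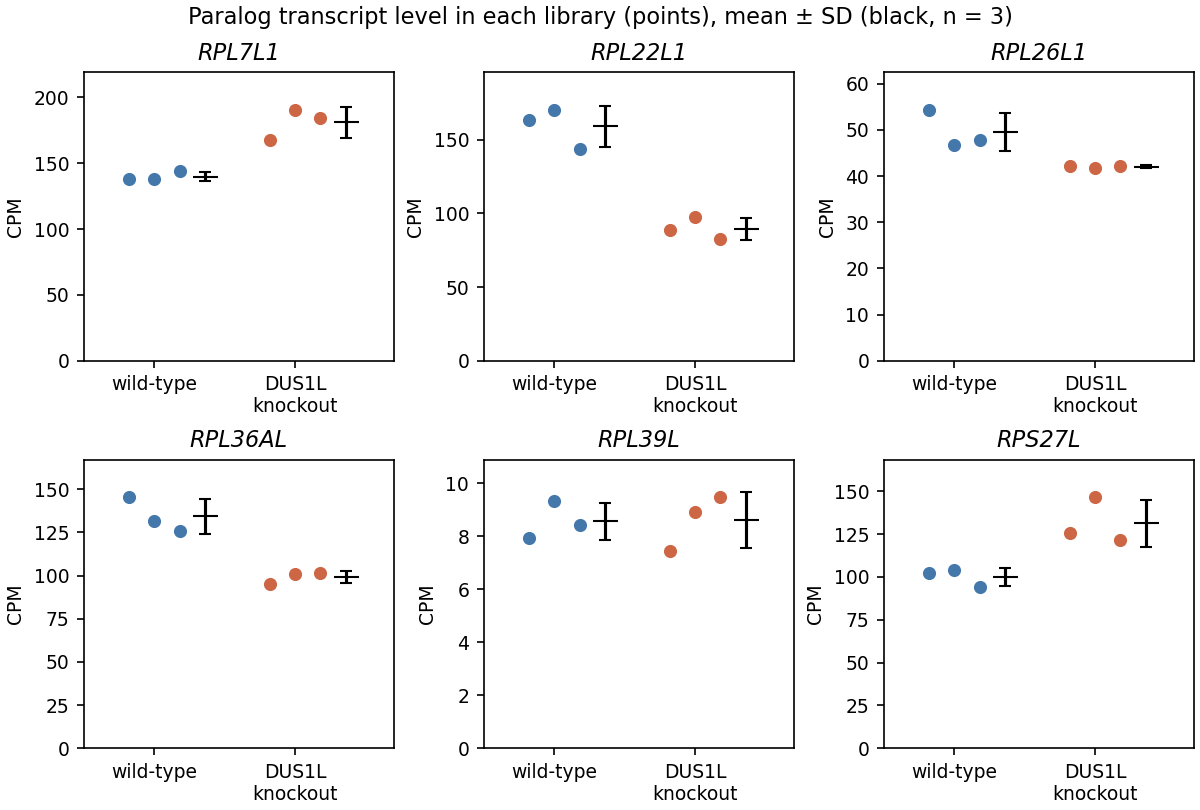
Transcript level of each paralog in CPM (vertical axes, each from 0) in the 3 wild-type (blue) and 3 DUS1L knockout (orange) libraries, in order of replicate number, with the mean ± SD in black. The groups are separate for each paralog except RPL39L, whose knockout libraries at 7.44 to 9.48 CPM span the wild-type ones.

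RPL22L1 changed by the most of the 6. This gene (ENSG00000163584.18, GRCh38 chromosome 3, 170864875 to 170870208, minus strand) was at 163, 170.1 and 143.6 CPM in wild-type replicates 1 to 3 and at 89.0, 97.3 and 82.3 CPM in knockout replicates 1 to 3. The lowest wild-type library lay far above the highest knockout library. The fall was 1.78-fold (log2 fold change -0.83, SE 0.07, adjusted p = 4.39e-08, edgeR), which left 56.3% of the wild-type level. Of all tested genes, 3.57% had a lower log2 fold change. In the test against a change of 1.5-fold (edgeR glmTreat), which called 3.58% of all genes, 2.31% as higher and 1.27% as lower, it was the one paralog called (adjusted p = 0.0115). That call was lost with DESeq2 (adjusted p = 0.0977) and limma-voom (adjusted p = 0.0636), at the same log2 fold change of -0.83. Its parent RPL22 was at 496.6, 507.4 and 445.4 CPM in the wild-type replicates against 385.5, 409.8 and 403.4 CPM in the knockout replicates. RPL22 therefore fell too, by 0.27 on the log2 scale (SE 0.05, adjusted p = 0.000375, edgeR), and without overlap between the groups.

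RPL7L1 rose while RPL7 fell. RPL7L1 (ENSG00000146223.16, chromosome 6, 42879616 to 42889925, plus strand) was at 137.9, 137.7 and 144 CPM in the wild-type replicates against 167.8, 190.3 and 184.3 CPM in the knockout replicates. The wild-type libraries were nearly equal and each knockout library was above them. The rise was 1.29-fold (log2 fold change 0.37, SE 0.06, adjusted p = 2.66e-05, edgeR). RPL7, a structural protein of the large subunit, was at 919.6, 943.7 and 866.2 CPM in the wild-type replicates against 689.9, 726.5 and 730.1 CPM in the knockout replicates. It fell by 0.35 on the log2 scale (SE 0.05, adjusted p = 1.23e-05, edgeR), so the 2 genes of the pair moved in opposite directions.

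RPS27L and RPS27 formed the other pair with opposite directions. RPS27L (ENSG00000185088.14, chromosome 15, 63125872 to 63158021, minus strand) was at 102.1, 103.8 and 94.0 CPM in the wild-type replicates against 125.7, 146.5 and 121.3 CPM in the knockout replicates. Knockout replicate 2 was the highest, and the other 2 knockout libraries were also above all wild-type libraries. The rise was 1.31-fold (log2 fold change 0.39, SE 0.07, adjusted p = 0.000132, edgeR). RPS27, a zinc-finger protein of the small subunit, was at 1273, 1199 and 1008 CPM in the wild-type replicates against 805.3, 888.5 and 898.5 CPM in the knockout replicates, a fall of 0.42 on the log2 scale (SE 0.08, adjusted p = 0.000982, edgeR). The 3′ part of RPS27L overlaps LACTB, which is read from the opposite strand. Whether counting used the strand is not given in the sources used here, so reads of the overlap cannot be told apart. LACTB rose as well, from 15.5 ± 1.4 to 24.5 ± 1.8 CPM, with a log2 fold change of 0.66 against 0.39 for RPS27L. The part of LACTB reads in the RPS27L counts was not tested. Of the parents, RPL22, RPL36A and RPL7 also overlap genes read from the opposite strand, RNF207, GLA and RDH10. These averaged between 6.85 CPM (RDH10) and 44.3 CPM (GLA) in wild-type replicates. RNF207, like RPL22, was lower in knockout replicates (log2 fold change -0.68, adjusted p = 0.000423, edgeR), and GLA and RDH10 were not called.

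RPL36AL and RPL36A both fell, with the same estimated log2 fold change of -0.43. RPL36AL (ENSG00000165502.7, chromosome 14, 49618530 to 49620626, minus strand) was at 145.4, 131.4 and 125.9 CPM in the wild-type replicates against 95.3, 101.1 and 101.5 CPM in the knockout replicates. The fall was 1.35-fold (log2 fold change -0.43, SE 0.06, adjusted p = 1.03e-05, edgeR), with the groups separate. RPL36A, an X-linked gene, stood at 567.1, 498 and 437.1 CPM in the wild-type replicates against 365.8, 376.4 and 370 CPM in the knockout replicates. Its log2 fold change was -0.43 as well (SE 0.07, adjusted p = 0.00044, edgeR).

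RPL26L1 and RPL26 both fell, and a difference between their falls was not shown. RPL26L1 (ENSG00000037241.7, chromosome 5, 172958729 to 172969771, plus strand) was at 54.3, 46.7 and 47.7 CPM in the wild-type replicates against 42.2, 41.7 and 42.1 CPM in the knockout replicates. The knockout libraries were close together, and wild-type replicate 1, the library that stood apart, was the highest. The fall was 1.18-fold (log2 fold change -0.24, SE 0.07, adjusted p = 0.0141, edgeR), and leaving out wild-type replicate 1 ended the call, at -0.17 on the log2 scale (adjusted p = 0.0707, edgeR). RPL26, whose protein sits near the exit of the peptide tunnel, was at 1651, 1463 and 1347 CPM in the wild-type replicates against 1026, 1162 and 1112 CPM in the knockout replicates. It fell by 0.43 on the log2 scale (SE 0.07, adjusted p = 0.000124, edgeR).

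RPL39L was the lowest of the 6 and the one not called. RPL39L (ENSG00000163923.10, chromosome 3, 187120948 to 187180908, minus strand) had 135, 172 and 145 counts in wild-type and 140, 154 and 168 counts in knockout libraries. These equal 7.94, 9.32 and 8.43 CPM against 7.44, 8.90 and 9.48 CPM, and the groups overlapped throughout. The log2 fold change was 0.00 with a 95% interval from -0.30 to 0.31 (adjusted p = 0.986, edgeR), so a change within that range was not excluded. Its parent RPL39 was at 360.2, 394.8 and 347.9 CPM in the wild-type replicates against 326.3, 329.3 and 336.8 CPM in the knockout replicates, a fall of 0.15 on the log2 scale (adjusted p = 0.0262, edgeR). The RPL39 call was lost when libraries were scaled by their totals only (adjusted p = 0.106, edgeR), with a correction for transcript length (adjusted p = 0.125), and without wild-type replicate 2 or knockout replicate 1, 2 or 3 (adjusted p = 0.172, 0.0876, 0.0728 and 0.0538).

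**Figure D2:**
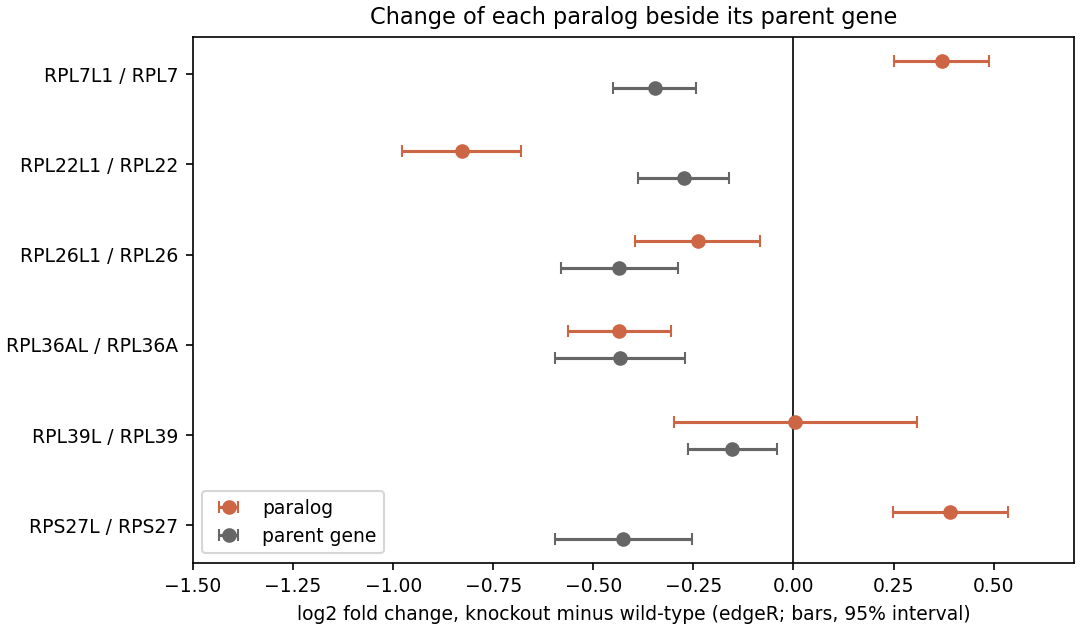
Log2 fold change of knockout against wild-type (horizontal axis, edgeR) for each paralog (orange) and its parent gene (grey), with 95% intervals as bars. RPL7L1 at 0.37 and RPS27L at 0.39 lie right of 0 while all parents lie left of it, RPL22L1 at -0.83 lies left of its parent, and the RPL36AL pair coincides at -0.43.

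The ratio of paralog to parent within a library does not depend on how libraries are scaled, and it tests the difference in response directly. A bias by transcript length would not cancel, and no length correction was applied to the ratio. In the single-gene edgeR fit with that correction, log2 fold changes were 0.31 for RPL7L1 and -0.32 for RPL7. They were 0.32 for RPS27L and -0.37 for RPS27, and -0.85 for RPL22L1 and -0.30 for RPL22. For 6 pairs with 3 libraries a group, the exact permutation test (two-sided) cannot give a p below 0.1. A limma fit of every gene relative to the parent, chosen after seeing the data, was added for that reason, with p adjusted over all 15926 genes that could be set in ratio to the parent.

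The RPL7L1 to RPL7 log2 ratio was -2.74, -2.78 and -2.59 in wild-type and -2.04, -1.93 and -1.99 in knockout libraries. The difference was 0.72, and over the 9 pairs of a knockout with a wild-type library it ranged from 0.55 to 0.84 (exact permutation p = 0.1, adjusted over the 6 pairs 0.15; limma adjusted p = 0.00262, where 49.5% of genes were called relative to RPL7). RPL7L1 thus made up 13.3% ± 0.8 of the counts of its pair in wild-type and 20.2% ± 0.6 in knockout libraries (SD, n = 3).
The RPS27L to RPS27 log2 ratio was -3.64, -3.53 and -3.42 in wild-type and -2.68, -2.60 and -2.89 in knockout libraries. The difference was 0.81 with a range of 0.53 to 1.04 (exact permutation p = 0.1, adjusted 0.15; limma adjusted p = 0.00664, 40.6% of genes called relative to RPS27). The share of RPS27L in the pair went from 7.98% ± 0.56 to 13.2% ± 1.2.
The RPL22L1 to RPL22 log2 ratio was -1.61, -1.58 and -1.63 in wild-type and -2.11, -2.07 and -2.29 in knockout libraries. The difference was -0.56 with a range of -0.72 to -0.44 (exact permutation p = 0.1, adjusted 0.15; limma adjusted p = 0.00857, 36.5% of genes called relative to RPL22). The share of RPL22L1 in the pair went from 24.7% ± 0.4 to 18.3% ± 1.2, so this pair shifted towards the parent and the RPL7 and RPS27 pairs shifted towards the paralog.

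The other 3 pairs did not pass the limma test. For RPL26L1 the ratio was higher in each knockout library, by 0.19 on average with a range of 0.02 to 0.37 (exact permutation p = 0.1, adjusted 0.15; limma adjusted p = 0.194, 46.8% of genes called relative to RPL26). For RPL36AL the difference was -0.01 with a range of -0.14 to 0.10 (exact permutation p = 0.9, limma adjusted p = 0.966, 42.9% called relative to RPL36A), and it held 21.2% ± 1.0 of its pair's counts in wild-type and 21.1% ± 0.4 in knockout libraries. For RPL39L the difference was 0.15 with a range of -0.09 to 0.35 (exact permutation p = 0.3, limma adjusted p = 0.325, 26.5% called relative to RPL39). For these 3 pairs a difference was not shown, which does not show that paralog and parent responded alike.

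**Figure D3:**
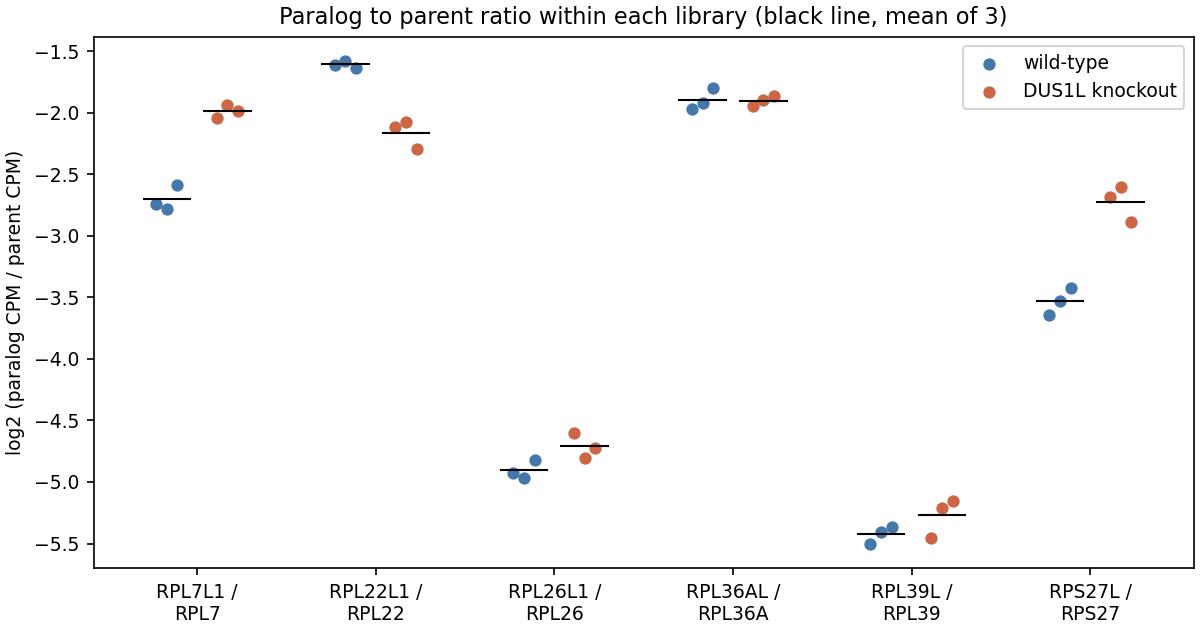
Log2 ratio of paralog CPM to parent CPM (vertical axis) in each library for the 6 pairs, wild-type in blue and DUS1L knockout in orange, with the mean of 3 as a black line. The knockout points lie above the wild-type points for the RPL7L1 and RPS27L pairs (differences of 0.72 and 0.81) and below them for RPL22L1 (-0.56). They lie above by less for RPL26L1 (0.19), and the groups overlap for RPL36AL and RPL39L.

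Set per kb of canonical transcript, each of the 6 paralogs was below its parent. Over the union of exons RPL36AL was instead above RPL36A, at 198.5 against 126.3 CPM per kb in wild-type and 146.9 against 93.5 CPM per kb in knockout libraries. In wild-type libraries, CPM per kb of canonical transcript was 198.5 ± 14.9 for RPL36AL, 83.6 ± 7.2 for RPL22L1, 68.7 ± 5.7 for RPL26L1, 31.1 ± 0.8 for RPL7L1, 16.4 ± 0.9 for RPS27L and 11.7 ± 1.0 for RPL39L (SD, n = 3). The parents lay between 234.4 ± 16.1 for RPL22 and 3295 ± 389 for RPS27. RPL22L1 and RPL26L1 were the neighbours closest to their spread, and in knockout libraries their order was turned on canonical lengths, with 47.1 ± 3.9 for RPL22L1 and 58.2 ± 0.4 for RPL26L1. The order in knockout libraries depends on the length used, since over the union of exons RPL22L1 stayed above RPL26L1, at 43.7 against 36.1 CPM per kb. Over the shortest full coding transcript, chosen after seeing the data, RPL7L1 also passed RPL22L1 there. The values were 48.0 against 47.1 CPM per kb, a gap smaller than the RPL22L1 SD of 3.9. The annotated canonical transcripts of RPS27L and RPL7L1 are long, at 6.11 and 4.50 kb against 0.35 and 1.23 kb for RPS27 and RPL7. A transcript with a shorter 3′ end would give a higher level per kb, and gene counts do not show which end was used. In CPM, the 6 paralogs together were at 563.7 to 610.6 in wild-type and 527.5 to 585.8 in knockout libraries, ranges that overlap, whereas the 6 parents together were at 4451 to 5268 and 3599 to 3892.

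Against the 79 genes of the cytosolic ribosomal proteins, which include the 6 parents, the paralogs spread more widely. Of these 79 genes, 70 were lower and 1 was higher, against 20.7% and 20.5% of all tested genes, with a median log2 fold change of -0.28 and a range from -0.49 to 0.12, where the median of all tested genes was 0.00. RPL10, RPL27A, RPS25 and RPL34, the members with the smallest p, fell by 0.44, 0.44, 0.40 and 0.44 on the log2 scale. The 1 higher gene, RPS19, was named after its value was seen, and its call was lost when any 1 library was left out. RPL7L1 and RPS27L lay above all 79 genes and RPL22L1 below all 79. RPL36AL had 5 of them below it, RPL26L1 had 50 below and 29 above, and RPL39L had 2 above.

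Because RPL7L1 belongs to the assembly of the large subunit, 36 assembly factors of that subunit were set beside it, and more of them were higher than lower. Of these, 36 were tested, 19 were higher and 2 were lower, against 20.5% higher and 20.7% lower over all tested genes, with a median log2 fold change of 0.15. RSL1D1, a nucleolar protein with an L1-like ribosomal domain, rose from 259.7 ± 9.2 to 390.5 ± 2.4 CPM. ZNF622, which acts on late particles in the cytoplasm, rose from 96.7 ± 4.9 to 141.9 ± 6.1 CPM. NIP7 and NOC3L, which act earlier in the nucleolus, rose by 0.45 and 0.36 on the log2 scale. The RPL7L1 rise of 0.37 lay between those of NOC3L and NIP7, which were named for being among the members with the smallest p. That rise was above the list median of 0.15, and 15 of the 36 factors were not called. The 2 lower factors, WDR12 and GNL3 (log2 fold change -0.24 and -0.14), were named after their values were seen. Without wild-type replicate 2, knockout replicate 1 or knockout replicate 3, the number higher was 10, 11 and 11. The number lower was 0 without wild-type replicate 2 and 1 without any one knockout replicate.

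Free RPL5 and RPL11 bind MDM2, a ubiquitin ligase that the RPS27L protein also binds, and these genes were listed with its relative MDM4. MDM2 rose from 90.1 ± 6.4 to 175.4 ± 17.5 CPM, and MDM4 from 38.6 ± 3.2 to 49.2 ± 2.1 CPM. RPL11 fell from 1215 ± 57 to 981.4 ± 28.5 CPM and RPL5 from 547.8 ± 16.3 to 480.9 ± 2.2 CPM, like most ribosomal protein genes. Transcript levels do not report on the proteins.

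**Figure D4:**
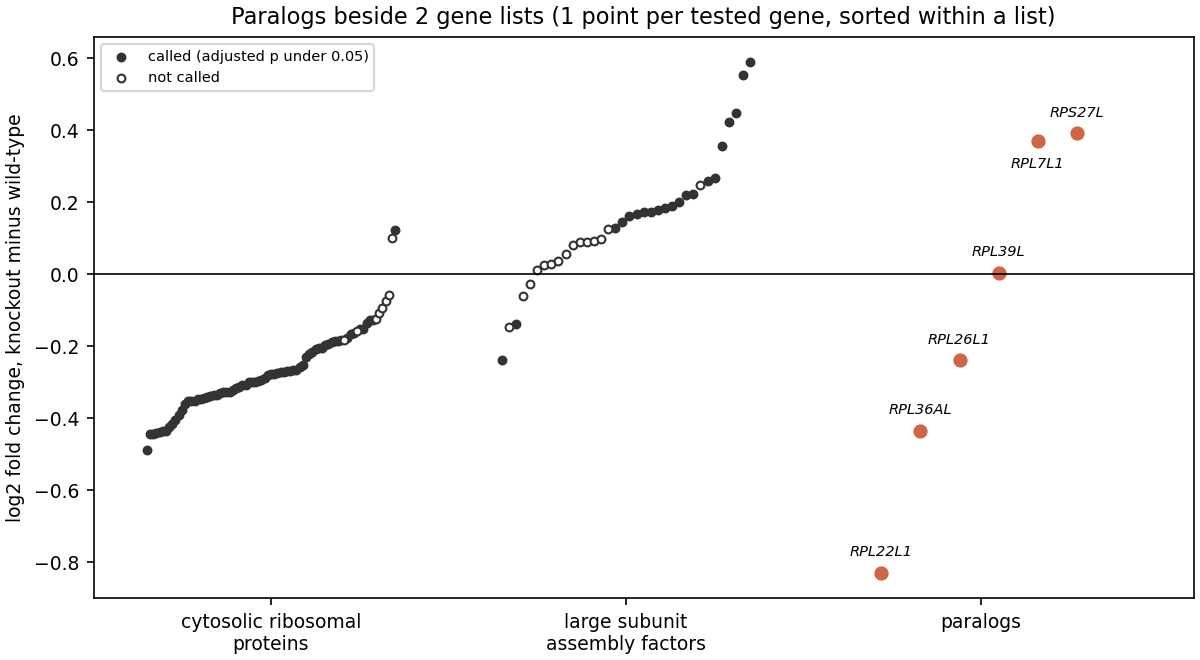
Log2 fold change of knockout against wild-type (vertical axis) for each tested gene of 2 lists, sorted within a list, and for the 6 paralogs in orange; black points were called and open points were not (paralogs are filled whether called or not). RPL7L1 and RPS27L lie above, and RPL22L1 below, the ribosomal protein range of -0.49 to 0.12.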

How the data were processed

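6 RNA-seq libraries of A375 cells were compared, 3 wild-type and 3 DUS1L knockout, grouped by sample title. The authors deposited estimated counts per gene, with no normalization recorded. The submitters' processing notes name GRCh38 (hg38). Aligner, counting tool, strand setting and annotation release are not given in the sources used here. Of 63086 identifiers, 62541 matched GENCODE release 44, which gave symbols, positions and lengths; symbols were matched to protein-coding genes. Start-site sequences are from RefSeq (GRCh38.p14). Counts were rounded, filtered with filterByExpr (minimum count 10) and scaled by TMM. Knockout was tested against wild-type by edgeR 4.0.16 under R 4.3.3 (robust quasi-likelihood fit, group only) over 16046 genes, with Benjamini-Hochberg adjustment and a threshold of 0.05, and against 1.5-fold with glmTreat. SEs come from the F statistic. Alternatives used DESeq2 1.42.0, limma 3.58.1, other scalings and filters, a replicate block, a transcript length correction, added pseudogene counts and left-out libraries. Named genes were all members, parents, DUS1L and up to 4 genes with the smallest p of each list, plus the 2 nearest profiles of each member. Members and lists were chosen with earlier results of these data known. The fit was tested on data simulated with 2 dispersion settings; the second setting was added after the first result was seen, and under both the share of false calls lay above the nominal threshold, so calls near 0.05 are the least certain. The replicates are described as biological, with clones not stated. The p-values set the group difference against the spread between these samples, which may hold no spread between clones. No 2 libraries matched within sampling noise (chi-square per degree of freedom 3.77 to 50.4). Intervals and floors cover counting error and replicate spread only. 1 gene and the list built on it are not reported here.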

Additional observations from a re-analysis of the deposited data

How the results depend on the processing

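Over 17 alternatives for each single gene, RPL7L1 (log2 fold change 0.31 to 0.42), RPS27L (0.30 to 0.44), RPL22L1 (-0.90 to -0.77) and RPL36AL (-0.48 to -0.37) kept direction and call in all 17, and RPL39L (-0.07 to 0.10) was called in none. RPL26L1 kept its call in 16, with -0.28 to -0.17 when 1 library was left out. Against 1.5-fold, RPL22L1 was at -0.83 with DESeq2 and limma-voom and passed with neither, which leaves 0 paralogs called there. To look for pairing, the group mean of each gene was subtracted from its log2 CPM, and the remainders were correlated between libraries. Between same-numbered libraries these correlations of remainders were -0.03, -0.0014 and 0.03. Wild-type replicates 1 and 2 each correlated best with the knockout library of another number, so the numbers were not taken as pairs. With the replicate block, RPL7L1 was at 0.37, RPL22L1 at -0.83 and RPS27L at 0.39, no paralog's call changed, and calls over all genes went from 6608 to 6241. The count of higher ribosomal protein genes (1) was 0 with upper quartile scaling, no filter, the replicate block or any library left out, and 2 with library size alone, a mean of at least 5 CPM or DESeq2. The count of lower assembly factors (2) was 1 with RLE scaling, library size alone, a mean of at least 5 CPM or the replicate block, and 0 to 2 with 1 library left out; higher ones numbered 10 to 16 then. Wild-type CPM per kb over the union of exons was 42.6 for RPL26L1, 17.9 for RPL7L1, 11.3 for RPS27L and 8.29 for RPL39L. RPL36AL then lay above RPL36A and RPL22L1 above RPL26L1 in both groups. Over the shortest full coding transcript, chosen after seeing the data, it was 37.1 for RPL7L1 and 13.1 for RPL39L. With 1 library left out, the paralog to parent difference was 0.68 to 0.77 for RPL7L1, 0.75 to 0.89 for RPS27L, -0.60 to -0.49 for RPL22L1, 0.14 to 0.24 for RPL26L1, 0.09 to 0.24 for RPL39L and -0.04 to 0.04 for RPL36AL. The cause of these shifts was not tested.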

Other observations

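The genes whose log2 CPM profile over the 6 libraries, centred on its mean, was nearest to each paralog were found among 11023 protein-coding genes averaging at least 5 CPM. The measure is the root mean square difference on the log2 scale. For RPL22L1 the nearest were ALPK1 (0.051) and UBE2C (0.0564), for RPL7L1 RNF25 (0.0158) and ZFP82 (0.03), and for RPS27L ARID3A (0.024) and CEMIP2 (0.0365). For RPL36AL they were NUDT12 (0.0204) and ATP5F1C (0.0231), for RPL26L1 SELENOF (0.022) and IFIT1 (0.0225), and for RPL39L TOR2A (0.0334) and DZIP1L (0.044).

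RPL3L and RPL10L, known from striated muscle and testis, are further paralogs of ribosomal protein genes and were not tested for low counts. RPL3L had 0, 2 and 3 counts in wild-type and 2, 4 and 7 counts in knockout libraries, and RPL10L had 0 in all 6.

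Outside the ribosomal protein and paralog genes, 1112 tested protein-coding genes had a run of 8 or more C or T at an annotated start. Of these, 16.5% were higher and 30.2% were lower in knockout cells, with a median log2 fold change of -0.07. Of 9689 such genes with no run, 22.6% were higher and 22.5% were lower, with a median of -0.01. Start sites were listed for 63 of the 79 ribosomal protein genes. Among these, 40 of 46 with a run and 15 of 17 without one were lower, so there the shares were close. The comparison was chosen after seeing the data and is a description with no test.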
